A study of Mus musculus with 9 samples.

Results

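The skeletal muscle contractile genes are a list of 33 genes that build the sarcomere of skeletal muscle, release and take up its calcium, or supply its energy. They were chosen by gene symbol in a table of FPKM (fragments scaled to transcript length and to library size), because many of them stood high in 2 of the study's 9 libraries. Of the 33, 32 had a row, of 21944 genes in all, and Acta1 was not analysed here. RNA was sequenced from tumours that a mouse pancreatic neuroendocrine tumour line formed in NSG mice (strain NOD.Cg-PrkdcscidIl2rgtm1Wjl/SzJ), a host without mature B, T or natural killer cells. The 3 groups hold 3 libraries each. N134 tumours 1, 2 and 3 grew from N134 cells injected under the skin. N134-RHAMMB tumours 1, 2 and 4 grew under the skin from N134-RHAMMB cells, whose name refers to RHAMMB, a form of the hyaluronan receptor RHAMM (gene Hmmr). N134-RHAMMB metastases 1, 2 and 3 were taken from the liver after that line was injected into a vein or under the skin; the labels do not tie a route to a sample. The sources used here give neither the age nor the sex of the mice, nor how RHAMMB was put into the cells. The labels do not say that libraries of a group came from separate animals, so each p-value reflects the variation among these libraries alone, part or all of which may be technical.

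Skeletal muscle shortens when myosin heads of the thick filament pull on actin of the thin filament. Troponin and tropomyosin on the thin filament block this until calcium, released from the sarcoplasmic reticulum, binds troponin C. Fast fibres and slow fibres build the same machine from different paralogues of myosin, troponin and the calcium pump. A mature fibre expresses these genes at very high levels, while most other cells express few of them.

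The libraries labelled N134-RHAMMB tumours 2 and 4 stood apart from the other 7. The 32 genes summed to 249 and 315 FPKM in tumours 2 and 4, against 40.4 FPKM in N134-RHAMMB tumour 1. In N134 tumours 1, 2 and 3 the sums were 37.3, 49.9 and 37.4 FPKM, and in metastases 1, 2 and 3 they were 34.1, 32.0 and 32.6 FPKM. The list thus made up 0.0571% and 0.0699% of all FPKM in those tumours and 0.00701% to 0.0112% in the other 7 libraries. At 1 FPKM or more stood 23 and 29 of the 32 genes in tumours 2 and 4, and 5 to 7 in each other library. The members were picked for this difference, so it is a description without a test.

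In 27 of the 32 genes tumours 2 and 4 both lay above the highest of the other 7 libraries. The same held for 401 of 18376 genes with a value above 0 in any library, or 2.18%. The exceptions were Tnnt1, Tnnc1, Actn3, Cacna1s and Pygm. At least 5 times the highest of the other 7, with 1 FPKM or more in both tumours, were 19 genes of the whole table (0.103%). Of these, 15 were members and 4 came from other muscle lists, namely Xirp2, Sln, Klhl41 and Nrap. None was outside the muscle lists. Median-of-ratios scaling, an alternative added after the values were seen, gave 18 such genes. Because the rule for the members used this contrast, nothing further is read from these counts. In bulk tissue, fewer cells of a type and less RNA per cell cannot be told apart.

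**Figure D1:**
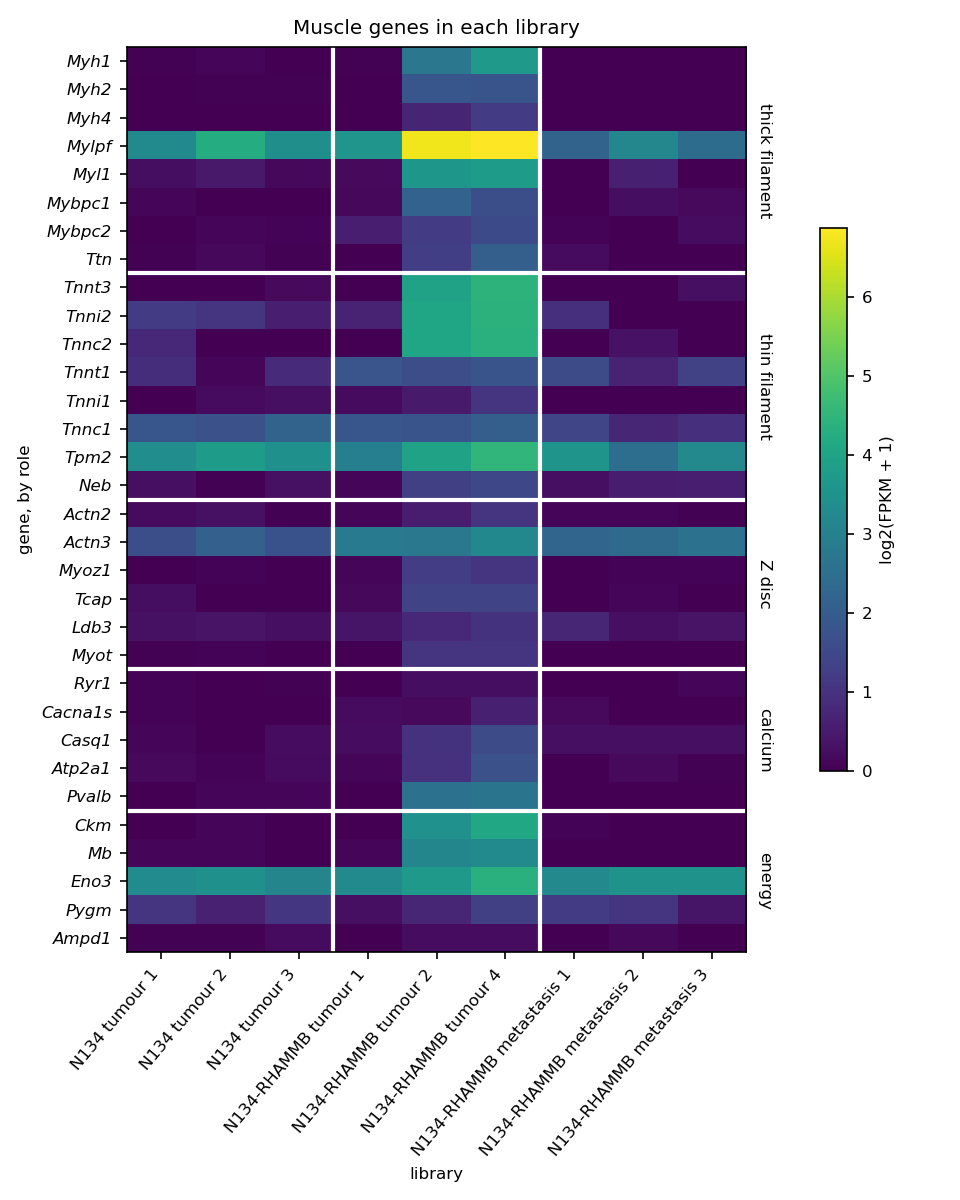
Levels of the 32 genes (rows, by role) in the 9 libraries (columns) as log2(FPKM + 1), with white lines between groups and roles. N134-RHAMMB tumours 2 and 4 are bright across most rows, and Mylpf, Tpm2, Eno3 and Actn3 are at 2.15 FPKM or more in the other 7 libraries too.

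Depth bears on the low values. The estimated depth was 14.7 to 18.3 M fragments per library, and for a 2 kb transcript a single fragment equals 0.0273 to 0.0341 FPKM. Many values below 0.1 FPKM therefore rest on 1 or a few fragments, and a gene listed at 0 may be present below that level. A fragment counts for more in a shorter transcript, such as Tnnc2 (700 bases), and for less in a longer one, such as Ttn (106824 bases). The labelled tissues carried their markers: Ins2, which encodes insulin, was at 21154 to 38503.6 FPKM in all 9 libraries, and Alb, serum albumin of hepatocytes, was at 1410 to 1609 FPKM in metastases and at most 1.60 FPKM in the tumours.

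The sequences just upstream of 6 members are shown because most of these genes were high in the same libraries and Tnnc1 was not. RefSeq (GRCm38.p6, the build of the table) gave a window of 250 bases before to 50 after a start, which was used for 24 of the 32 members. No window was used for Actn3, Ampd1, Myot, Myoz1, Neb, Tcap, Tnni2 and Tnnt3. Capitals mark, on either strand, an E-box CAGCTG (a motif of the MyoD family), a TATA box TATAAA, an MCAT box GGAATG (a TEAD motif), a MEF2 site or a CArG box (the SRF motif). A match on the other strand appears as its reverse complement.
Myh1 (chr11:67199852-67200151, plus strand): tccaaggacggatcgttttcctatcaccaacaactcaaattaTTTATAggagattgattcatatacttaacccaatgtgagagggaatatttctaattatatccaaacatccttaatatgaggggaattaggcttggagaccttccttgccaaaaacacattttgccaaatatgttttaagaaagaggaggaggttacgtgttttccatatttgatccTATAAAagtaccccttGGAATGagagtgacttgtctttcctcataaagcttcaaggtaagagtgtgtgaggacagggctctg
Myh4 (chr11:67237562-67237861, plus strand): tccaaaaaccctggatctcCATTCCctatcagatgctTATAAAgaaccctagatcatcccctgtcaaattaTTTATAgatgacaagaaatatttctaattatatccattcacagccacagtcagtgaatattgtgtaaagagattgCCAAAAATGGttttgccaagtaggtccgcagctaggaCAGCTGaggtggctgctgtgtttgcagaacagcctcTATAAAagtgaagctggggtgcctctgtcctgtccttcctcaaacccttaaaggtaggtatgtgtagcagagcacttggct
Mylpf (chr7:127211358-127211657, plus strand): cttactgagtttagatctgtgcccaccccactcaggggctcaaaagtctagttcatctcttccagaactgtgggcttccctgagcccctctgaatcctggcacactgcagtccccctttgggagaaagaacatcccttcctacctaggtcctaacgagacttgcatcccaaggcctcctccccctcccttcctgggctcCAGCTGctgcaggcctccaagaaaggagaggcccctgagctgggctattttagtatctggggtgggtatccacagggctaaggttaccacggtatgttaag
Myl1 (chr1:66945007-66945306, minus strand): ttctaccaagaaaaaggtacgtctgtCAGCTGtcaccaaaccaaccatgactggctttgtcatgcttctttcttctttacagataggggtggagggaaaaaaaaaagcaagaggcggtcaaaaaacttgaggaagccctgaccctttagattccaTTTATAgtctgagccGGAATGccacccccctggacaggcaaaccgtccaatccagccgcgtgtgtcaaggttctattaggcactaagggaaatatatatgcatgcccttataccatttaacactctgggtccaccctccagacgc
Ckm (chr7:19410844-19411143, plus strand): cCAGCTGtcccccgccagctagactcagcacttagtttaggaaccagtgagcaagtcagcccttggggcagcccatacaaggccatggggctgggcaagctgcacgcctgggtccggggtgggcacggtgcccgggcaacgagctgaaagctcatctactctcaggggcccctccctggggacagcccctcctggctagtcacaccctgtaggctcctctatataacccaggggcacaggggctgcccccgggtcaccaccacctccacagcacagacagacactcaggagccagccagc
Tnnc1 (chr14:31208062-31208361, plus strand): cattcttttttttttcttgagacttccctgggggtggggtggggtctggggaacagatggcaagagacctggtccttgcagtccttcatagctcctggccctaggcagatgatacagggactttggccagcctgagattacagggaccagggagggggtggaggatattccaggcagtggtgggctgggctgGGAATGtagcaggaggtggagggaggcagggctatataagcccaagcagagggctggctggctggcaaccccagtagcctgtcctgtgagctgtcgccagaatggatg

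The E-box CAGCTG was found in windows of 13 of the 24 members, against 16.3% of all 32851 windows. Some members have several overlapping windows, and by window the count was 15 of 29. GGAATG was in 8 members (14.7% of all windows), TATAAA in 5 (13.6%), the CArG box in 2 (1.63%) and the MEF2 site in 1, Ttn (0.557%). In Myh1 and Myh4, neighbours in the myosin cluster on chromosome 11, a TATA box began 32 and 31 bases before the start. Myl1 held one 95 bases before its start and an MCAT box at 80. The Mylpf window held a single E-box, 51 bases before a start that lies inside the locus given in the table. In Ckm, whose upstream enhancer is a textbook target of MyoD, the E-box was at the far edge of the window, 249 bases before the start. Tnnc1, which did not stand out in tumours 2 and 4, held only an MCAT box. So did Mybpc2, and Tnnc2 held no match, though both genes were above the other 7 libraries in these tumours. Pygm and Cacna1s, which did not stand out either, held the E-box, so the matches did not separate these genes. A match describes letters and shows no binding.

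Among thick filament genes, Mylpf, the fast regulatory light chain of myosin, had the highest level of all 32 genes in both tumours. Mylpf (ENSMUSG00000030672, chromosome 7, 127208890 to 127214298) reached 106 FPKM in N134-RHAMMB tumour 2 and 117 FPKM in tumour 4, with 11.0 FPKM in tumour 1. In N134 tumours it was at 8.61, 18.0 and 9.66 FPKM, and in metastases at 3.60, 8.13 and 4.44 FPKM. It was thus read in every library, and its lower value in tumours 2 and 4 was 5.88 times the highest of the other 7. By rank Mylpf was gene 586 and 538 of its library in tumours 2 and 4, and gene 4508 to 10408 in the others. Myl1, the fast essential light chain, had 11.5 and 12.7 FPKM there, against 0 to 0.511 FPKM elsewhere.

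The fast myosin heavy chains differed in level. Myh1 (type IIx; ENSMUSG00000056328, chromosome 11, 67200052 to 67224575) was at 5.67 and 12.3 FPKM in tumours 2 and 4. Myh2 (type IIa) was at 2.58 and 2.43 FPKM and Myh4 (type IIb) at 0.623 and 1.34 FPKM. None of these genes exceeded 0.0612 FPKM in another library, and Myh2 was listed at 0 in all metastases. Myh1 led and Myh4 was lowest in both tumours. Fragments may be split between these paralogues: of all 50-base windows of the longest transcript, 26.7% of Myh1, 26.9% of Myh2 and 18.9% of Myh4 occurred in another of the myosin heavy chains compared (Myh1, Myh2, Myh3, Myh4, Myh7, Myh8 and Myh13). Their values are uncertain to that extent.

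The myosin-binding proteins C, which brace the thick filament, were read in a slow and a fast form. Mybpc1, the slow form, was at 3.50 and 2.16 FPKM and at most 0.190 FPKM elsewhere. Mybpc2, the fast form, was at 1.36 and 1.92 FPKM and reached 0.488 FPKM in N134-RHAMMB tumour 1. Ttn, the giant spring protein titin, was at 1.43 and 3.20 FPKM, against 0.00235 to 0.150 FPKM in the other 7 libraries. All 3 genes were above the other libraries in both tumours, and Mybpc1 was the one with the higher level in tumour 2.

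The thin filament genes with the clearest gap were the fast troponins. Tnnt3, fast troponin T, was at 14.7 and 20.9 FPKM in tumours 2 and 4. It was listed at 0 in 5 of the other 7 libraries and at 0.129 and 0.219 FPKM in N134 tumour 3 and metastasis 3. Tnni2, fast troponin I, lies beside Tnnt3 on chromosome 7 (142441808 to 142444410) and was at 15.6 and 20.5 FPKM. N134 tumours held 1.34, 1.05 and 0.492 FPKM of it, N134-RHAMMB tumour 1 held 0.622 FPKM, and metastases held 0.902, 0 and 0 FPKM. The fast troponin subunits were close in level within each tumour. Tnnc2, the fast calcium-binding subunit, was at 15.8 and 19.5 FPKM and at 0 in 5 of the other libraries. Its exons overlap those of the mitosis gene Ube2c on the opposite strand. No source used here gives the strand setting, so reads that fall within the overlap may not be told apart. Atp2a1 (Rabep2) and Mb (Apol6) overlap a coding gene in the same way.

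Slow troponins followed another pattern. Tnnc1, troponin C of slow and cardiac muscle, had 2.60, 2.28 and 3.59 FPKM across the N134 tumours. The N134-RHAMMB tumours 1, 2 and 4 held 2.57, 2.44 and 3.21 FPKM of Tnnc1, and the metastases 1.72, 0.672 and 0.931 FPKM. All 6 subcutaneous libraries lay above the 3 metastases, and tumours 2 and 4 lay within the range of the other tumours. Tnnt1, slow troponin T, had 2.52, 2.07 and 2.47 FPKM in tumours 1, 2 and 4 of the RHAMMB line. Its values were 0.862, 0.0844 and 0.805 FPKM in the N134 line and 2.01, 0.619 and 1.58 FPKM in metastases. Tumour 1, low in fast muscle genes, had the highest Tnnt1. Tnni1, slow troponin I, was low but still highest in tumours 2 and 4, at 0.413 and 1.06 FPKM against at most 0.223 FPKM.

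The remaining thin filament members were Tpm2 and Neb. Tpm2, beta-tropomyosin, which smooth muscle and fibroblasts also express, was at 14.7 and 22.2 FPKM in tumours 2 and 4 and at 4.58 to 12.8 FPKM elsewhere. Neb, nebulin, which spans the thin filament, was at 1.45 and 1.82 FPKM and at most 0.497 FPKM elsewhere. The gap to the other libraries was small for Tpm2, a ratio of 1.15, and 2.93 for Neb.

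Most Z disc genes were low outside tumours 2 and 4, and Actn3 was not. The low ones included Myoz1 (calsarcin-2, a calcineurin-binding protein) at 1.39 and 1.07 FPKM, Tcap (telethonin, the titin cap) at 1.64 and 1.67 FPKM and Myot (myotilin) at 1.06 and 1.08 FPKM. Their highest values elsewhere were 0.0592, 0.194 and 0.0562 FPKM. Actn2, an alpha-actinin of all fibres, was at 0.456 and 1.06 FPKM, and Ldb3, a Z disc adaptor, at 0.712 and 1.02 FPKM against up to 0.667 FPKM in metastasis 1. Actn3, the alpha-actinin of fast fibres, had 6.16, 5.69 and 8.20 FPKM in tumours 1, 2 and 4 of the RHAMMB line. The N134 tumours held 2.15, 3.28 and 2.32 FPKM and the metastases 3.72, 4.19 and 4.91 FPKM. All 3 N134-RHAMMB tumours were above all N134 tumours in Actn3, tumour 1 included, and the metastases lay between them.

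Calcium handling genes were mostly at low levels. Pvalb, parvalbumin, a calcium buffer that speeds relaxation of fast fibres, was at 5.06 and 5.27 FPKM and listed at 0 in 5 of the other libraries, with 0.0914 and 0.0938 FPKM in N134 tumours 2 and 3. Atp2a1, the fast calcium pump, was at 0.975 and 2.26 FPKM, and Casq1, the calcium store protein calsequestrin, at 1.02 and 2.06 FPKM. Both were at most 0.227 FPKM elsewhere. Ryr1, the calcium release channel, was at 0.203 and 0.200 FPKM. Cacna1s, the voltage sensor that opens it, was at 0.130 and 0.534 FPKM, and its value in tumour 2 lay below the 0.145 FPKM of N134-RHAMMB tumour 1.

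Of the energy genes, Ckm and Mb were nearly absent outside tumours 2 and 4. Ckm (ENSMUSG00000030399, chromosome 7, 19404776 to 19422841), muscle creatine kinase, was at 10.2 FPKM in tumour 2 and 16.0 FPKM in tumour 4, against 0.0582 and 0.0570 FPKM in N134 tumour 2 and metastasis 1 and 0 in the other 5 libraries. Mb, myoglobin, which stores oxygen and is rich in oxidative fibres, was at 7.98 and 8.73 FPKM in tumours 2 and 4, at most 0.0749 FPKM in the other tumours and at 0 in all metastases. Eno3, muscle enolase, was at 12.2 and 19.8 FPKM and at 7.73 to 10.4 FPKM in the others. Pygm, muscle glycogen phosphorylase, was at 0.667 and 1.46 FPKM and at 0.210 to 1.32 FPKM elsewhere, so the groups overlapped. Ampd1, muscle AMP deaminase, stayed at or below 0.180 FPKM in all 9 libraries.

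Levels of the genes in tumours 2 and 4 were correlated. Across the 32 genes, log2(FPKM + 1) in tumour 2 and tumour 4 had Pearson's r of 0.98 and Spearman's rho of 0.948. Genes are not independent replicates, and the genes differ in length and general level and were picked for their level in these tumours. The correlation is therefore a description. For the 20 members at 1 FPKM or more in both and above the other 7 libraries, the median log2 ratio of tumour 4 to tumour 2 was 0.32. It was 0.19 for all 11872 genes at that level in both. Among the 20 members, Ttn (2.24 times), Myh1 (2.17 times) and Casq1 (2.02 times) were further toward tumour 4. Outside the 20, at lower levels, Cacna1s was 4.10 times and Tnni1 2.58 times as high in tumour 4 as in tumour 2. Mybpc1 (0.618 times) and Myoz1 (0.766 times) were lower in tumour 4 than in tumour 2.

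**Figure D2:**
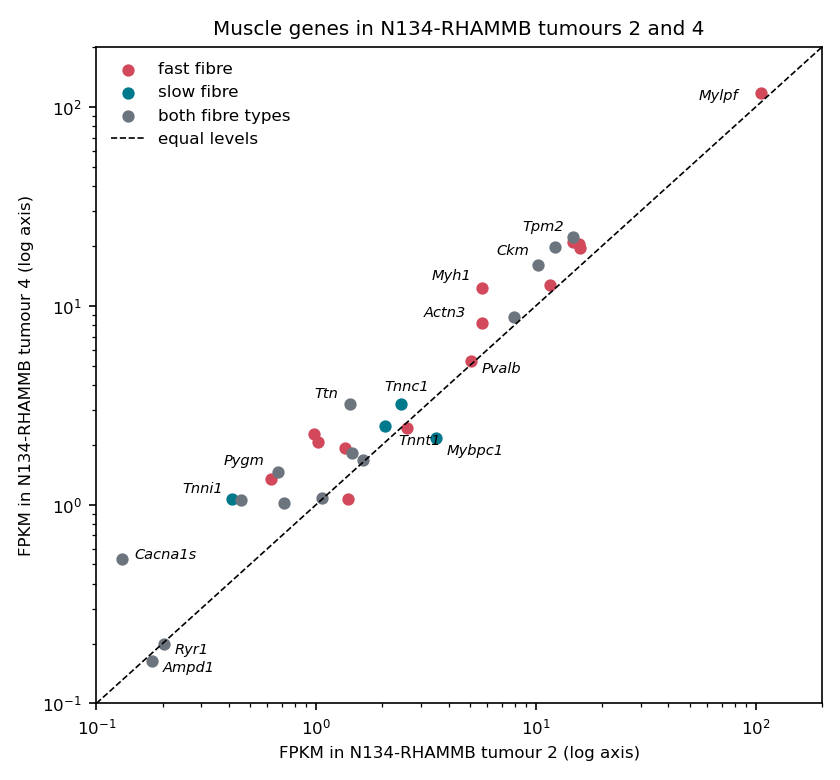
FPKM of each of the 32 genes in N134-RHAMMB tumour 2 (horizontal, log axis) against tumour 4 (vertical, log axis), coloured by fibre type, with a dashed line of equal levels. Most points lie near or above the line, and Mybpc1 lies below it at 3.50 and 2.16 FPKM.

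By summed FPKM, the fast members were above the slow members in tumours 2 and 4. The 14 fast members summed to 188 and 227 FPKM and the 4 slow members to 8.42 and 8.91 FPKM, log2 ratios of 4.48 and 4.67. Mylpf alone gave 106 and 117 FPKM of the fast sums, and the sums hold unequal numbers of genes. The members were picked for their level in these tumours, so the ratios are a description. In the other 7 libraries the log2 ratio was 1.19 to 3.19, where Mylpf and Actn3 made up most of the fast sum. By the median gene the log2 ratio was 1.25 and 1.54 in tumours 2 and 4 and between -4.88 and -0.99 in 6 of the others, so the sign in those libraries depended on the measure. In metastasis 1 the fast median was 0 and no ratio was taken. Adding 8 slow fibre genes that are not members turned the ratio of sums to -0.51 and -0.61 in tumours 2 and 4, and gave between -5.21 and -3.59 in the other 7. Among these 8, Atp2a2, the pump of slow fibres and most other cells, was at 138 to 222 FPKM and Tpm3 at 77.8 to 154 FPKM over the 9 libraries.

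Pair by pair, the fast paralogue was above the slow one in both tumours in 8 of 11 pairs. The fast partners are all members, picked for their level in these tumours, so the count is a description. Among the 8, Actn3 was set against Actn2, an alpha-actinin of all fibres. Tnni2 was 37.8 and 19.3 times Tnni1, Tnnt3 was 7.13 and 8.47 times Tnnt1, and Tnnc2 was 6.46 and 6.07 times Tnnc1. In the other 7 libraries Tnnt3, Tnnc2, Myh4, Atp2a1 and Casq1 were never above their slow partners. Tnni2, Myl1 and Mybpc2 were above theirs in 5 of the 7, Myoz1 in 4, and Mylpf and Actn3 in all 7. Myh7, the slow myosin heavy chain, was at 0.0516 and 0.0217 FPKM in tumours 2 and 4, within the range of the others, and Myl3, the slow essential light chain, was listed at 0 in both. Mybpc2 was below Mybpc1 in both tumours, Atp2a1 was below Atp2a2, and Casq1 was below Casq2 in tumour 2 only. Myoz2, the slow partner of Myoz1, was at 1.35 and 0.914 FPKM, against at most 0.0497 FPKM elsewhere.

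**Figure D3:**
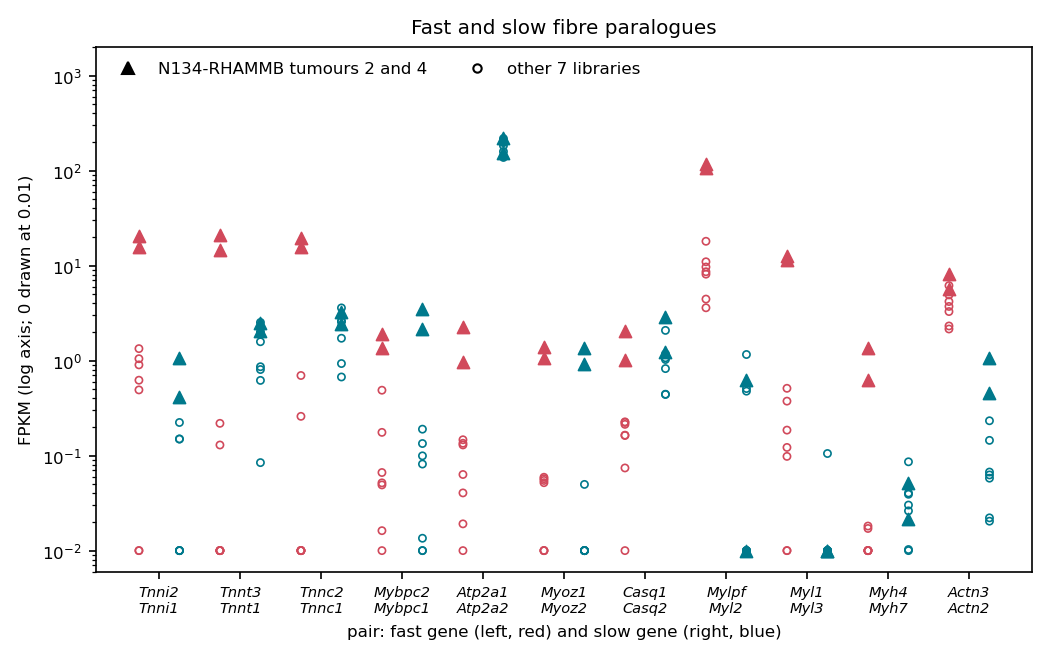
FPKM (log axis, 0 drawn at 0.01) of fast genes (red, left) and their slow partners (blue, right), with filled triangles for N134-RHAMMB tumours 2 and 4 and open circles for the other 7 libraries. Actn2, drawn as the slow partner of Actn3, is an alpha-actinin of all fibres. The triangles of the fast troponins lie at 14.7 to 20.9 FPKM, above every circle of their pair, while those of Tnnt1 and Tnnc1 lie among the circles.

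Other muscle genes were read from lists of the sarcomere, the triad, metabolism, the neuromuscular junction, precursors and development. Of 23 sarcomere and Z disc genes that are not members, 16 had both tumours above the other 7 libraries. Xirp2, an actin-binding repeat protein, was at 3.81 and 3.32 FPKM and at most 0.0956 FPKM elsewhere, and Des, the muscle intermediate filament desmin, at 5.64 and 7.56 FPKM against 0.754 to 3.79 FPKM. Csrp3, a muscle LIM protein, was at 8.08 and 5.53 FPKM. Tpm1 had 72.7 FPKM in tumour 4 but 54.8 FPKM in tumour 2, below the 68.6 FPKM of N134 tumour 2. Of 12 triad and calcium genes 5 had both tumours on top. Sln, the pump inhibitor sarcolipin, was at 1.40 and 2.14 FPKM and listed at 0 in the other 7 libraries. Of 12 metabolic genes 3 did, of 8 neuromuscular junction genes 2 did, and of 8 slow fibre genes 1 did, Myoz2. These shares stand beside the 2.18% of all genes, and neither sets a minimum level. Some of the genes counted rest on 1 or a few fragments. The neuromuscular junction genes were Chrna1, at 0.0298 and 0.0318 FPKM in tumours 2 and 4, and Chrnd, at 0.0850 and 0.0225 FPKM. Sypl2 of the triad list was at 0.0331 and 0.123 FPKM there, against up to 0.0327 FPKM in N134-RHAMMB tumour 1.

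Precursor and developmental genes were near 0. Myod1, a master regulator of muscle fate, was listed at 0 in all 9 libraries. Pax7, of muscle stem cells, and Myf5, of early myoblasts, were at 0 in tumours 2 and 4. Myog, which drives differentiation, was at 0.194 and 0.204 FPKM and Myf6, the regulator kept in mature fibres, at 0.334 and 0.542 FPKM, and both were listed at 0 elsewhere. The embryonic myosin Myh3 was at 0.187 and 0.229 FPKM and the perinatal Myh8 at 0.0893 and 0.272 FPKM. Mymk, Mymx and Cdh15 were not analysed here.

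Over the whole table, the non-members at 5 FPKM or more in both tumours with the largest ratio of their lower value to the highest of the other 7 were Csrp3 (3.70), the small heat shock protein Cryab (1.63) and Des (1.49). The next 7 were P4htm, Lrrc42, Cacng4, Fam102a, Arhgap26, Ube2j2 and Xrn2, at 1.15 to 1.28. This ratio was taken over all 9 libraries. Xirp2, Sln, Klhl41 and Nrap had larger ratios but lay below 5 FPKM in both tumours.

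Markers of other cell types were read in the same libraries. Heart genes were mostly low: Nppa was at 0 in all 9 libraries, Myh6 at most 0.0403 FPKM, Actc1 at most 0.102 FPKM and Tnni3 at most 0.456 FPKM. Tnnt2 reached 3.50 FPKM, in metastasis 1. Myl4 reached 2.66 FPKM, in metastasis 3, and was at 1.31 and 1.35 FPKM in tumours 2 and 4. The 10 cardiac genes summed to 2.62 and 3.05 FPKM in tumours 2 and 4, within the 1.54 to 6.44 FPKM of the others. Both tumours were on top in 1 of the 10 cardiac genes, Myl7, at 0.532 and 0.722 FPKM against at most 0.475 FPKM elsewhere. None of 8 smooth muscle genes had both tumours on top, and the list summed to 58.2 and 115.9 FPKM there against 68.3 to 188 FPKM elsewhere. Keratinocyte genes, 12 in all, summed to 71.9 FPKM in tumour 2, of which Krtdap gave 51.4 FPKM, and to 5.77 FPKM in tumour 4, with 4.68 to 19.0 FPKM in the others. The 9 adipocyte genes summed to 110 FPKM in N134-RHAMMB tumour 1, 64.6 FPKM in tumour 2 and 39.5 FPKM in tumour 4, against 64.8 to 85.5 FPKM in N134 tumours and 22.9 to 26.5 FPKM in metastases. Adipoq, the adipocyte hormone adiponectin, was at 10.6, 1.75 and 0.822 FPKM in tumours 1, 2 and 4 and at 0 in metastases.

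Fibroblast genes, 6 in all, came to 341, 272 and 471 FPKM across N134-RHAMMB tumours 1, 2 and 4. The N134 tumours had 592 to 845 FPKM and the metastases 171 to 390 FPKM. Tumours 2 and 4 were the lowest and the highest of their group. The 6 tendon genes came to 2.03, 4.43 and 5.08 FPKM in the same tumours, to 3.93 to 4.12 FPKM in the N134 line and to 1.11 to 3.71 FPKM in metastases. The 8 Schwann cell genes summed to 12.6 and 16.9 FPKM in tumours 2 and 4 and 9.67 to 15.8 FPKM elsewhere. Both tumours were on top in 2 of the 8 Schwann cell genes, 1 of the 6 tendon genes and 1 of the 12 keratinocyte genes, and in none of the adipocyte, fibroblast, islet or hepatocyte genes. No minimum level was set, and Pmp2 of the Schwann cell list was at only 0.0890 and 0.194 FPKM in tumours 2 and 4. The part of these cells in the muscle values was not tested.

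**Figure D4:**
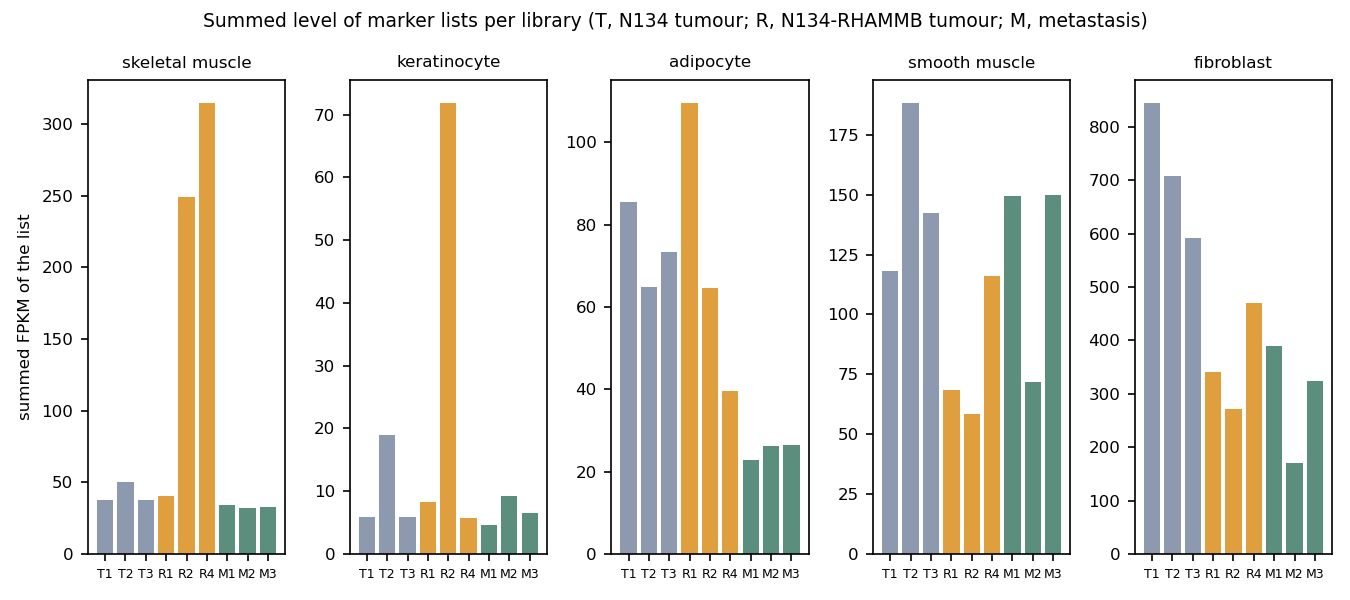
Summed FPKM of the 32 muscle genes and of 4 marker lists (one panel each, bars from 0) in N134 tumours (T), N134-RHAMMB tumours (R) and metastases (M). Muscle is high in R2 and R4, keratinocyte genes in R2 alone, and adipocyte genes are highest in R1.

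The comparison of metastases with N134 tumours has neither of the libraries that chose the members in its group means. Its standard errors and its filter on low values come from a fit of all 9 libraries, so tumours 2 and 4 enter those. It asks how a liver metastasis of the RHAMMB line differs from an N134 tumour under the skin, so line and site cannot be told apart. Of the 32 members, 8 reached 1 FPKM in at least 3 of the 9 libraries and were tested with limma on log2(FPKM + 1). Tnni2 passed this filter only with tumours 2 and 4, where the members were found high, beside N134 tumours 1 and 2, so its values here are a description. The other 24 members did not pass it. Tnnc1 had 2.82 ± 0.681 FPKM in N134 tumours and 1.11 ± 0.545 FPKM in metastases (SD, n = 3). It fell in metastases by 0.88 on the log2 scale (SE 0.21, limma adjusted p = 0.0261). It was the 1 member called lower of the 8, and none was called higher. Of all 12854 genes tested 9.93% were called, 4.23% lower and 5.69% higher.

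The other 7 did not pass. Mylpf stood at 12.1 ± 5.16 FPKM in N134 tumours and 5.39 ± 2.41 FPKM in metastases (SD, n = 3), a log2 difference of -1.03 (SE 0.74, limma adjusted p = 0.484), and the groups did not overlap. That SE includes the spread of the N134-RHAMMB tumours. It was 0.33 without tumours 2 and 4 (limma adjusted p = 0.117), 0.33 with only the groups compared (limma adjusted p = 0.117) and 0.30 without N134-RHAMMB tumour 1 (limma adjusted p = 0.0763). Over all alternatives the adjusted p of Mylpf was 0.0763 to 0.743. Tnni2 was at -0.64 (limma adjusted p = 0.726), Tpm2 at -0.44 (0.571), Pygm at -0.05 (0.952) and Eno3 at 0.11 (0.866). Actn3 was at 0.56 (limma adjusted p = 0.0915) and Tnnt1 at 0.60 (limma adjusted p = 0.236). The call of Tnnc1 was lost without N134 tumour 1 (limma adjusted p = 0.0720), N134 tumour 3 (0.108), metastasis 2 (0.0679) or metastasis 3 (0.104), without N134-RHAMMB tumours 2 and 4 (0.0624) and with only these groups in the fit (0.0619). Over all alternatives its adjusted p was 0.0167 to 0.108.

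The other skeletal muscle lists gave no calls in the same comparison. None of the 4 tested genes of the sarcomere and Z disc, 4 of the triad, 6 of metabolism, 1 of the neuromuscular junction and 4 of slow fibres passed, and no precursor or developmental gene was tested. An unadjusted limma p under 0.05 was found for 2 of the slow fibre genes and 1 metabolic gene. The share of all genes at that level was not computed, so nothing is read from such counts. Marker lists moved beside Tnnc1: 4 of 5 adipocyte genes, 4 of 6 fibroblast genes and 1 of 2 tendon genes fell in metastases, and 5 of 6 hepatocyte genes and 1 of 2 cardiac genes rose. Among 5 smooth muscle, 4 keratinocyte, 2 Schwann cell and 6 islet genes limma called 0, with an unadjusted p under 0.05 in 1 smooth muscle and 1 islet gene. Their part in the fall of Tnnc1 was not tested.

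Comparisons with the N134-RHAMMB tumours contain the libraries that chose the members, so their counts are descriptions. They share groups with each other and with the comparison above. Against N134 tumours, limma called 0 of the 8 tested members, beside 0.194% of all genes (0.0778% higher and 0.117% lower). An unadjusted limma p under 0.05 was found for 4 of the 8. The share of all genes at that level was not computed, so nothing is read from that count. For Mylpf the group mean of 77.9 FPKM (SD 58.2, n = 3) joins tumour 1 with the far higher tumours 2 and 4. Actn3, whose 3 values there were close, differed by 1.10 (SE 0.18, limma adjusted p = 0.0661), and Tnnt1 by 1.12 (SE 0.27, limma adjusted p = 0.145). Metastases against N134-RHAMMB tumours gave 2 of 8 members, Mylpf (-3.12) and Tnnc1 (-0.85), both lower in metastases, beside 6.56% of all genes (1.52% lower and 5.04% higher). Without tumours 2 and 4, limma called 0 members in that comparison, and the lone N134-RHAMMB tumour 1 is then assumed to vary like the other groups.

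With N134-RHAMMB tumour 1 as the only library of its group, its muscle genes were set against N134 tumours in a fit without tumours 2 and 4. On log2(FPKM + 1), Mylpf differed by -0.06 (SE 0.47), Tnnc1 by -0.08 (SE 0.33) and Eno3 by -0.05 (SE 0.22). Pygm differed by -0.66 (SE 0.36) and Tpm2 by -0.57 (SE 0.39). Actn3 differed by 1.01 (SE 0.26) and Tnnt1 by 1.19 (SE 0.43). With 1 library in the group these differences are descriptions, and no call is read from them.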

How the data were processed

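RNA of 9 tumour libraries was measured by RNA sequencing. The submitters' processing notes list Cufflinks 2.1.1, STAR 2.5.2, bcl2fastq 2.19 and the build GRCm38 without their roles. The authors deposited FPKM values for 22053 rows of protein-coding genes, per the file headers, which are divided by gene length and library size. Dropped were 7 rows whose estimate had failed, and 102 rows that repeated a symbol gave way to the locus with the highest mean, leaving 21944 genes. Values below 1e-06 were set to 0 (497 values). Coordinates are the table's, with 1 added to the start, as 82.3% of 21737 rows then matched GENCODE release M21 (GRCm38). Depth was estimated from the lowest clustered values of genes with 1 transcript of 2 to 6 kb.

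Group differences came from limma 3.58.1 (R 4.3.3), with 1 model over 9 libraries on log2(FPKM + 1), a trended prior, 2-sided, with Benjamini-Hochberg adjustment over 12854 genes with at least 1 FPKM in at least 3 libraries, and a threshold of 0.05. The code was tested on simulated data. Fold changes on this scale understate changes of low genes. Figures were drawn in Python 3.11.15. Members, lists and the libraries to compare were chosen with earlier results of these data known. Named are all members, of each other list up to 4 genes with the highest FPKM, and the 10 non-members ranked by the ratio above. Klhl41, Nrap, Myod1, Nppa, Myh6, Actc1, Myh7, Myl3, Myoz2, Chrna1, Chrnd, Sypl2 and Pmp2 were named after their values were seen. Alternatives were pseudocount 0.1, other filters, median-of-ratios scaling, only 2 groups, a replicate block and libraries left out.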

Additional observations from a re-analysis of the deposited data

How the results depend on the processing

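The summed levels of the 32 genes kept their order between N134-RHAMMB tumours 2 and 4 and the other 7 libraries under median-of-ratios scaling, where they were 267 and 290 FPKM, and metastasis 2 moved to 34.4 FPKM. By medians the log2 ratio of fast to slow genes was 1.25 and 1.54 in tumours 2 and 4, and with slow genes that are not members it turned to -0.51 and -0.61. Limma called 619 to 1174 genes and 0 to 1 members between metastases and N134 tumours with 1 library left out. With only the groups compared it called 1004 genes and 0 members, and without tumours 2 and 4 it called 1005 genes and 0 members. Between N134-RHAMMB and N134 tumours it called 0 to 191 genes and 0 to 2 members with 1 library left out. Only the groups compared gave 263 genes and 2 members (Actn3 and Tnnt1), median-of-ratios scaling 32 genes and 1 member (Actn3), the replicate block 1 gene, and leaving out tumours 2 and 4 also 1 gene. Between metastases and N134-RHAMMB tumours it called 356 to 775 genes and 0 to 2 members with 1 library left out. There, 1065 genes and 1 member were called with no filter (Mybpc2) and 646 genes and 1 member with the replicate block (Mylpf), while only the groups compared gave 701 genes and 0 members, and leaving out tumours 2 and 4 gave 0 members and 507 genes. The cause was not tested. Under the replicate block 1097 genes were called between metastases and N134 tumours. Libraries of the same number were not treated as paired in the main fit. Their deviations from the group means correlated at -0.0027 to 0.102. Libraries of different number were not compared in this way, so these values cannot decide whether the samples were paired. The depth of 14.7 to 18.3 M fragments limits low values. For a 2 kb transcript 1 fragment equals 0.0273 to 0.0341 FPKM, more for a shorter transcript and less for a longer one.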

Other observations

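Some muscle-type genes that are not members were also read in metastases. Tnnt2, the troponin T of heart muscle, was at 3.50, 1.49 and 3.06 FPKM in metastases, 0.335, 0.290 and 0.975 FPKM in N134 tumours and 0.315, 0.128 and 0.949 FPKM in N134-RHAMMB tumours 1, 2 and 4. It was higher in metastases than in N134 tumours by 1.25 on the log2 scale (SE 0.29, limma adjusted p = 0.0192), in 3 of 3 metastases. Csrp3 was at 1.40, 1.38 and 1.49 FPKM in metastases and at most 0.0914 FPKM in N134 tumours and N134-RHAMMB tumour 1. Its log2 difference between metastases and N134 tumours was 1.21 and did not pass (SE 0.61, limma adjusted p = 0.298), though these groups did not overlap. That SE includes the spread of N134-RHAMMB tumours 1, 2 and 4, where Csrp3 was at 0.0914, 8.08 and 5.53 FPKM. Srl, sarcalumenin of the sarcoplasmic reticulum, was high in every library, at 14.9 to 76.2 FPKM, with its highest value in metastasis 2. Myh7b, a slow-type myosin heavy chain, was at 9.52 FPKM in metastasis 3 and at 1.36 to 5.29 FPKM in the others.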
